A study of Nicotiana tabacum with 21 samples.

Results

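The TIR1/AFB proteins are F-box receptors of the plant hormone auxin. In Arabidopsis thaliana, auxin joins a receptor of this family to an AUX/IAA repressor, the receptor's ubiquitin ligase marks the repressor for breakdown, and auxin response factors (ARFs) that the repressor had held back can act on their target genes. Cultured plant cells usually need auxin in the medium to divide, and lines that have lost this need are called habituated. The 7 tobacco receptor transcripts described here were listed by their IDs in the tobacco cDNA set (IDs starting with Nitab4.5): NtTIR1T (Nitab4.5_0000824g0070.1), its homolog NtTIR1S (Nitab4.5_0003614g0030.1) and Nitab4.5_0000053g0050.1, Nitab4.5_0000190g0020.1, Nitab4.5_0002093g0100.1, Nitab4.5_0002093g0180.1 and Nitab4.5_0010603g0020.1, which the study's list of auxin genes places in the auxin receptor class without naming them further. They are 7 of 69491 quantified transcripts. The same class holds 7 other transcripts, so the 7 described here are not the whole family, and both sets together are referred to as the 14 receptor transcripts.

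The data are RNA-seq libraries of tobacco (Nicotiana tabacum) suspension cultures, in 7 groups of 3 replicates and 21 libraries in all. BY-2 and BY-2H trace back to the cultivar Bright Yellow 2 and grew in Murashige and Skoog medium. VBI-0 and VBI-2 trace back to Virginia Bright Italia and grew in modified Heller medium. The groups were BY-2H in the stationary and exponential phase (habituated, grown free of auxin), BY-2 in the stationary phase (auxin-dependent, grown with the synthetic auxin 2,4-D), VBI-2 in both phases (habituated, grown free of auxin) and VBI-0 in both phases (auxin-dependent, grown with 2,4-D and NAA). The cells were harvested on day 3 (exponential) or day 10 (stationary), while for stationary BY-2 the sources give both day 7 and day 10. Exponential BY-2 cells were not analysed here. Each line is a single culture line. The study calls the replicates biological, but nothing in the labels says whether they came from separate flasks. The p-values therefore measure the spread between libraries, which may be technical if they did not. Total estimated reads per library ranged between 10545447 and 22564711.

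In both pairs the line and the auxin supplied changed together and cannot be told apart. Between the BY and the VBI lines, cultivar and medium differ too and cannot be told apart from the line. BY-2H libraries were sequenced by another company than all others and as paired, longer reads, so in the comparison of BY-2H with BY-2 the sequencing cannot be told apart from the line either. The VBI lines were sequenced alike. Stationary BY-2 replicate 2 had shorter effective lengths (the length over which a read can start) than its group, with 869 bases for NtTIR1T against 1204 and 1104 bases in replicates 1 and 3. The BY-2 libraries also differed more from each other than those of any other group, with a chi-square per degree of freedom of 31.0 to 34.35 between their counts, against 2.06 to 8.63 between replicates elsewhere. In fits of all 21 libraries the spread is pooled with the less variable groups, which can make adjusted p-values that involve BY-2 smaller: for Nitab4.5_0000190g0020.1 in BY-2H against BY-2 it was 1.53e-06 by edgeR in that fit and 0.00331 in the fit of the 6 stationary BY libraries. Levels are given in TPM, a share of all transcripts that corrects for their length. A transcript is said to have risen or fallen where edgeR's quasi-likelihood test on estimated reads gave an adjusted p (Benjamini-Hochberg, over all transcripts tested) no higher than 0.05 together with a log2 fold change of 1 or more in size.

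The cDNA sequences themselves are not shown here. The study's own primers for the NtTIR1 pair are printed below because they are designed sequences that carry the names of the copies the results turn on. The first 4 (gene primers) were made for counting gene copies of NtTIR1S and NtTIR1T, and the last 2 (q primers) for RT-qPCR of the transcript, with NtTIR1T as the listed target. All are written 5′ to 3′ in lower case.
NtTIR1Sgene_For: gctgaaggggagccttgata
NtTIR1Sgene_Rev: gtgcactaacctactgctatgt
NtTIR1Tgene_For: gctagtttatacgggccatgg
NtTIR1Tgene_Rev: acaaagcaatgtcaatctaccga
NtTIR1_qFor1: gtgctctctggctgtgaaag
NtTIR1_qRev1: cgcattgtctcaagctttgc

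The lengths of the 7 transcript models varied widely. Nitab4.5_0000190g0020.1 had 2495 bases, Nitab4.5_0002093g0180.1 2034, NtTIR1T 1851, NtTIR1S 1746 and Nitab4.5_0000053g0050.1 1224 bases, whereas Nitab4.5_0002093g0100.1 had 594 bases and Nitab4.5_0010603g0020.1 fewer still. The 7 other receptor transcripts had at most 1758 bases. By accession, 4 of the 7 matched a gene of the RefSeq annotation of tobacco (assembly ASM71507v2): LOC107791833 (NtTIR1T), LOC107818988 (NtTIR1S), LOC107811573 (Nitab4.5_0002093g0180.1) and LOC107822860 (Nitab4.5_0010603g0020.1). That assembly is not the one behind the IDs, so no coordinates are given.

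Receptor transcripts from near-identical copies can share reads, which Salmon divides between them. Such sharing was visible in the estimates: where 2 transcripts both had fractional reads, their sum was a whole number (within 0.005) far more often in some pairs than in others. NtTIR1T and NtTIR1S summed to a whole number in 15 of the 20 libraries in which both were fractional. All 15 were BY-2 or VBI libraries. In BY-2H the sum was fractional in every library, for example 33275.32 in stationary replicate 1. Sharing between these 2 copies alone was thus not visible in BY-2H. The same held for Nitab4.5_0000190g0020.1 and Nitab4.5_0008145g0010.1 in 18 of 19 libraries, for Nitab4.5_0000053g0050.1 and Nitab4.5_0000519g0220.1 in 8 of 16, and for Nitab4.5_0002093g0100.1 and Nitab4.5_0010603g0020.1 in 5 of 5. Between 2 pairs of the other receptor transcripts it held in 19 of 21 and 16 of 19 libraries, and in the remaining 85 of the 91 possible pairs of the 14 in at most 2 libraries. Levels of the single copies in these pairs are therefore uncertain to the extent that reads were shared, and sums of pairs are given for the main comparisons. Nitab4.5_0002093g0180.1 and Nitab4.5_0004150g0060.1 carry the same RefSeq accession and were summed as well.

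In stationary BY-2H cells 5 of the 7 receptor transcripts differed from BY-2, with 3 higher and 2 lower. In this comparison 43.1% of the 47271 transcripts tested were called, 20.3% higher and 22.8% lower. NtTIR1T had 1275, 1240 and 1227 TPM in stationary BY-2H cells, against 11.7, 6.04 and 5.81 TPM in stationary BY-2 cells. No BY-2H library came near the BY-2 range, and BY-2 replicate 1 was the highest of its group. The log2 fold change was 6.97 (SE 0.34, adjusted p = 1.78e-07), a 125-fold difference, and it lay between 6.74 and 7.48 in 15 alternative analyses. These levels rested on 33201, 29440 and 25200 estimated reads in BY-2H and on 344, 146 and 166 in BY-2. NtTIR1T alone took between 0.238% and 0.241% of all estimated reads of a stationary BY-2H library and between 0.00126% and 0.00264% of a BY-2 library.

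NtTIR1S, the homolog that shares reads with it, did not pass the test. It had 3.11, 3.40 and 4.28 TPM in stationary BY-2H cells, against 3.76, 2.71 and 2.43 TPM in BY-2 cells. The ranges overlapped, and the log2 fold change was -0.17 (SE 0.30, adjusted p = 0.652). Its sign depended on the analysis, between -0.37 and 0.25 over the alternatives. NtTIR1S had 74.3, 73.7 and 81.0 estimated reads in stationary BY-2H, beside 33201, 29440 and 25200 of NtTIR1T. A small error in dividing shared reads could shift its level there, which is therefore uncertain. Of the summed TPM of both copies, NtTIR1T made up 99.7% ± 0.054 in stationary BY-2H, against 71.7% ± 3.45 in BY-2 (SD over 3 libraries each). The summed copies rose by 6.51 on the log2 scale (SE 0.31, adjusted p = 1.55e-07).

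**Figure D1:**
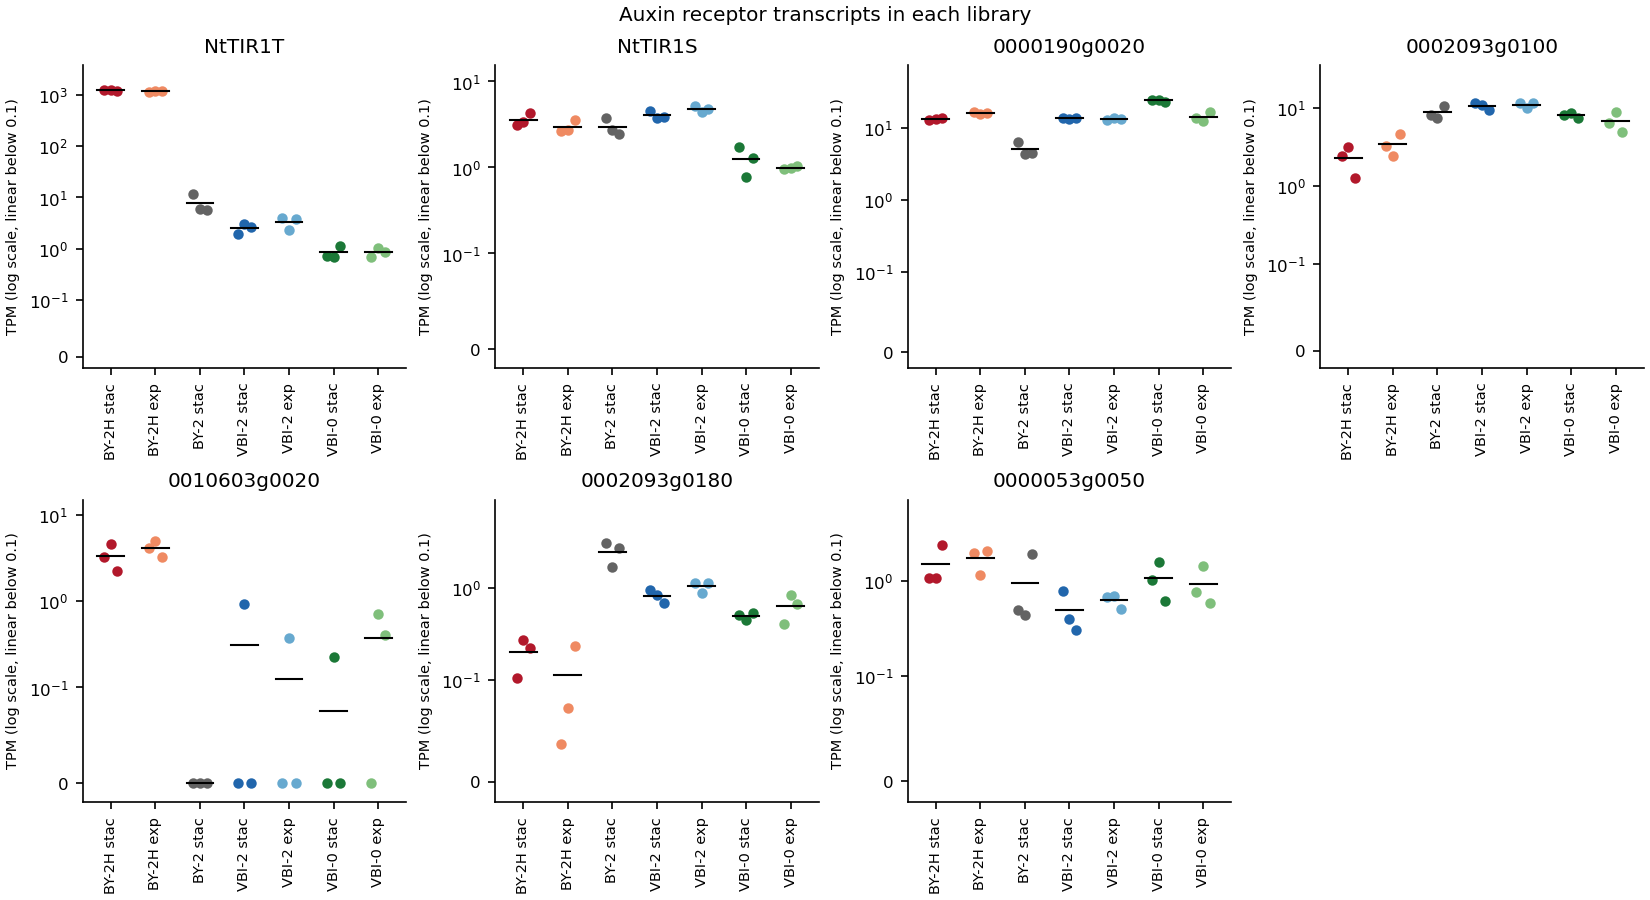
TPM of the 7 receptor transcripts in each of the 21 libraries on a logarithmic axis that is linear below 0.1 TPM; points are libraries, coloured by group, and bars are group means (n = 3). NtTIR1T lies at 1140 to 1275 TPM in the 6 BY-2H libraries and at most at 11.7 TPM elsewhere, whereas the other 6 transcripts stay below 25 TPM in all groups.

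Nitab4.5_0010603g0020.1, the shortest model, was seen chiefly in BY-2H. It had 3.30, 4.56 and 2.26 TPM in stationary BY-2H cells, from 16, 19 and 9 reads, against 0 reads in each of the 3 BY-2 libraries. Taken as 3 reads over the BY-2 group, the count of 0 allows up to 0.080 CPM against 1.20 CPM measured in BY-2H. This is a 15.1-fold difference if counting error alone is allowed for (adjusted p = 0.00109 by edgeR). It is no lower bound on the level, as reads that fit both copies may have been given to the partner in BY-2. The read-sharing partner of Nitab4.5_0010603g0020.1, Nitab4.5_0002093g0100.1, went the other way, with 2.42, 3.14 and 1.24 TPM in stationary BY-2H cells against 8.13, 7.47 and 10.7 TPM in BY-2 cells. No BY-2H value reached the BY-2 range, and the transcript fell by 2.30 on the log2 scale (SE 0.39, adjusted p = 0.000602).

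The estimates of both partners were whole numbers in all 6 BY-2H libraries, for example 14 and 16 reads in stationary replicate 1. Nitab4.5_0002093g0100.1 held 39.5% ± 3.59 of the summed TPM of the pair in stationary BY-2H and all of it in the 3 BY-2 libraries. Read type changes with the line here, so it cannot be told whether this division follows the line or the longer, paired reads. With the reads of both partners added, the pair was lower in BY-2H (log2 fold change -1.18, SE 0.35, adjusted p = 0.0155), so the sum moved with the lower partner and by less.

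The largest fall among the 7 was that of Nitab4.5_0002093g0180.1. It had 0.106, 0.271 and 0.223 TPM in stationary BY-2H cells, against 3.06, 1.68 and 2.71 TPM in BY-2 cells, and the groups did not overlap. The log2 fold change was -3.88 (SE 0.45, adjusted p = 4.28e-05), on 3, 7 and 5 reads in BY-2H and 90, 46 and 79.6 reads in BY-2. Summed with Nitab4.5_0004150g0060.1, which reached at most 0.343 TPM in any library, it fell by 3.801 on the log2 scale. On the scale of log2(TPM + 1), which understates changes of low transcripts, limma gave -1.52 for it alone, still a call.

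Nitab4.5_0000190g0020.1 rose to 12.9, 13.5 and 13.9 TPM in stationary BY-2H cells, against 6.43, 4.35 and 4.46 TPM in BY-2 cells. All BY-2H values lay above all BY-2 values. Its log2 fold change of 1.04 (SE 0.23, adjusted p = 0.00331) lay just above the limit, and it was 0.96 and 0.90 without BY-2 replicate 2 or 3, so that the call rested on those libraries. Its partner Nitab4.5_0008145g0010.1 stood at 0.997 (SE 0.30, adjusted p = 0.0168), just under the limit, and the sum of both rose by 1.03 (SE 0.24, adjusted p = 0.00456). Nitab4.5_0000053g0050.1 gave 1.08, 1.07 and 2.41 TPM in BY-2H and 0.494, 0.442 and 1.94 TPM in BY-2, overlapping ranges at a log2 ratio of 0.47 (SE 0.62, adjusted p = 0.535). Its sum with Nitab4.5_0000519g0220.1 did not pass either (0.64, SE 0.38, adjusted p = 0.185).

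None of the 7 other receptor transcripts passed the test in this comparison, and 6 of them were tested. All 6 had log2 fold changes above 0, between 0.23 and 1.00. At an unadjusted p under 0.05 there were 2, Nitab4.5_0007017g0010.1 (0.99) and Nitab4.5_0008145g0010.1, and the sum of Nitab4.5_0007017g0010.1 with Nitab4.5_0011300g0010.1 stood at 0.58 (SE 0.29, adjusted p = 0.112). These values rest on reads not corrected for effective length. By mean TPM, Nitab4.5_0007017g0010.1 stood 2.77-fold and Nitab4.5_0008145g0010.1 2.76-fold higher in stationary BY-2H than in BY-2. Nitab4.5_0000559g0290.1 (1.74-fold), Nitab4.5_0005161g0090.1 (1.61-fold) and Nitab4.5_0011300g0010.1 (1.60-fold) were higher too, and none of these overlapped between the groups. Nitab4.5_0000519g0220.1 (1.92-fold) overlapped.

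Among the VBI lines, NtTIR1T and NtTIR1S rose together in the habituated line, in both phases. In the exponential phase these were the 2 called of the 7, where 38.5% of 48440 transcripts tested were called (17.1% higher, 21.5% lower). NtTIR1T had 3.96, 2.37 and 3.83 TPM in exponential VBI-2 cells, against 0.692, 1.05 and 0.865 TPM in exponential VBI-0 cells. The groups did not overlap, and the log2 fold change was 1.92 (SE 0.26, adjusted p = 2.08e-06). NtTIR1S had 5.14, 4.42 and 4.77 TPM in exponential VBI-2 cells, against 0.949, 0.992 and 1.04 TPM in VBI-0 cells, which is 2.21 on the log2 scale (SE 0.22, adjusted p = 2.16e-08). Every VBI-2 library again stood above every VBI-0 library.

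In the stationary phase 4 of the 7 passed the test, 2 higher and 2 lower, where 39.9% of the transcripts tested were called (17.7% higher, 22.3% lower). NtTIR1T had 1.97, 3.05 and 2.60 TPM in stationary VBI-2 cells, against 0.724, 0.693 and 1.12 TPM in VBI-0 cells (log2 fold change 1.497, SE 0.27, adjusted p = 7.07e-05). NtTIR1S had 4.56, 3.75 and 3.89 TPM in stationary VBI-2 cells, against 1.71, 0.778 and 1.28 TPM in VBI-0 cells (log2 fold change 1.55, SE 0.22, adjusted p = 3.13e-06). Under limma on log2(TPM + 1) the value of NtTIR1T was 0.94 and the call was lost. The pair summed rose by 1.53 (SE 0.18, adjusted p = 2.96e-07) in the stationary phase and by 2.08 (SE 0.18, adjusted p = 2.86e-09) in the exponential phase. NtTIR1T made up 38.4% ± 7.48 of the pair in stationary VBI-2 and 41.1% ± 9.91 in stationary VBI-0, and 41.0% ± 5.31 in exponential VBI-2 and 46.3% ± 4.67 in exponential VBI-0 (SD, n = 3 each), ranges that overlapped in both phases.

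The 2 that were lower in stationary VBI-2 cells were Nitab4.5_0000190g0020.1 and Nitab4.5_0000053g0050.1. Nitab4.5_0000190g0020.1 had 13.9, 13.2 and 13.7 TPM in stationary VBI-2 cells, against 24.7, 24.7 and 23.1 TPM in VBI-0 cells, groups that lay well apart. It fell by 1.03 on the log2 scale (SE 0.090, adjusted p = 3.11e-09). The size stood at the fold limit, and the log2 fold change was -0.99 without VBI-0 stationary replicate 1 or 2 and -0.88 with an offset for effective length, so that the call was lost there at a low adjusted p. Summed with Nitab4.5_0008145g0010.1 it was -0.78 (SE 0.086, adjusted p = 1.15e-07), under the fold limit. In the exponential phase it was -0.23 (SE 0.090, adjusted p = 0.0358), not a call either.

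Nitab4.5_0000053g0050.1 had 0.787, 0.402 and 0.307 TPM in stationary VBI-2 cells, against 1.02, 1.59 and 0.612 TPM in VBI-0 cells. These are 5 to 21 reads a library, the groups overlapped, and the call (log2 fold change -1.22, SE 0.51, adjusted p = 0.0433) was lost in 9 of 16 alternatives, among them DESeq2 (adjusted p = 0.072) and the omission of VBI-0 replicate 2 (adjusted p = 0.205). The sum with Nitab4.5_0000519g0220.1 did not pass the test (log2 fold change 0.04, SE 0.17, adjusted p = 0.85). Of the 6 other receptor transcripts tested, 1 was lower in stationary VBI-2 cells, Nitab4.5_0000559g0290.1 (log2 fold change -1.03, SE 0.11, adjusted p = 3.2e-08), and its sum with Nitab4.5_0005161g0090.1 did not pass (-0.08, adjusted p = 0.431).

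Of the 3 members left over, Nitab4.5_0002093g0100.1 and Nitab4.5_0002093g0180.1 were not called in either phase. In the exponential phase Nitab4.5_0002093g0100.1 had 11.3, 9.80 and 11.4 TPM in VBI-2 cells, against 6.43, 8.90 and 4.94 TPM in VBI-0 cells (log2 fold change 0.57, SE 0.22, adjusted p = 0.0337), and Nitab4.5_0002093g0180.1 had 1.13, 0.884 and 1.13 TPM in VBI-2 cells, against 0.402, 0.845 and 0.674 TPM in VBI-0 cells (log2 fold change 0.71, SE 0.30, adjusted p = 0.0485). Neither pair of groups overlapped, and both values lay under the fold limit, which Nitab4.5_0002093g0180.1 passed without VBI-0 replicate 2 (1.02). The sum of Nitab4.5_0002093g0100.1 and Nitab4.5_0010603g0020.1 stood at 0.51 (SE 0.22, adjusted p = 0.0512). Nitab4.5_0010603g0020.1 had between 0 and 6.77 reads in any VBI library and showed no detectable difference at this depth.

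**Figure D2:**
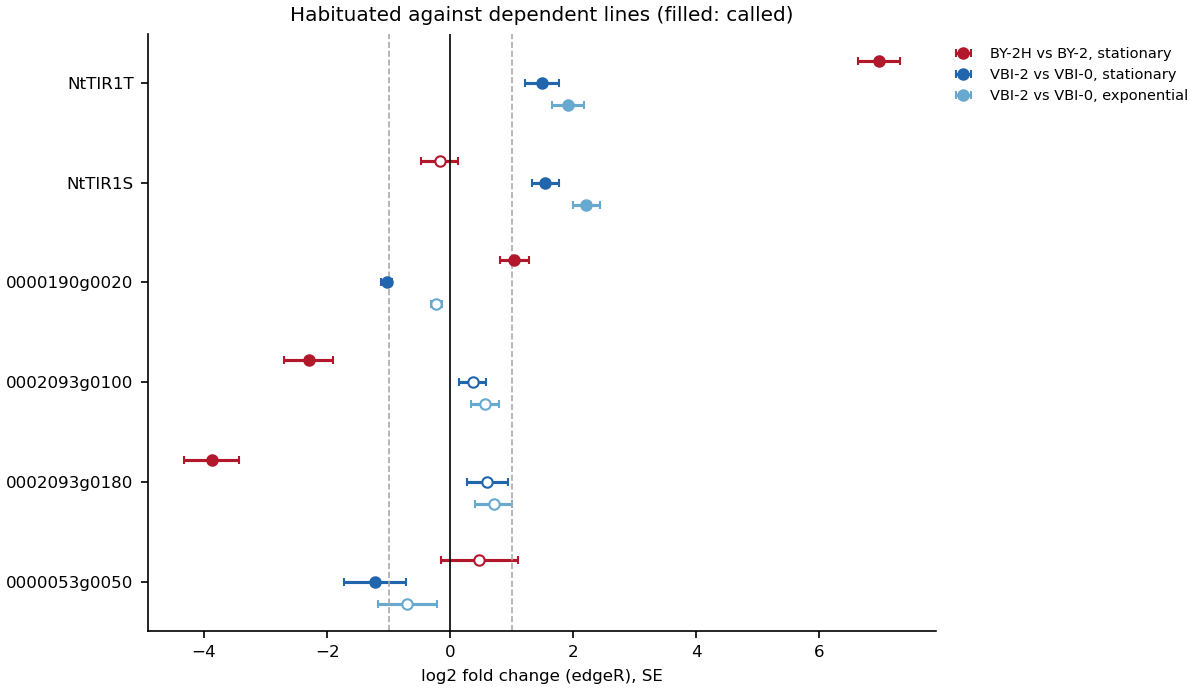
Log2 fold changes (edgeR, SE) of 6 receptor transcripts in BY-2H against BY-2 and in VBI-2 against VBI-0 in both phases; filled points were called and dashed lines mark the fold limit of 1. Nitab4.5_0010603g0020.1 is left out because all BY-2 libraries had 0 reads. NtTIR1T stands at 6.97 in the BY pair and at 1.497 and 1.92 in the VBI pair, whereas NtTIR1S stands at -0.17, 1.55 and 2.21.

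To ask whether the pairs of lines differed, the difference between the effect of BY-2H against BY-2 and that of VBI-2 against VBI-0 was tested in stationary cells, in a fit of all 21 libraries. This comparison was added after the data had been seen, and 55.5% of 49980 transcripts tested had an adjusted p of at most 0.05 (29.6% above and 25.9% below 0). Of the 7 receptor transcripts, 5 did, 2 above and 3 below 0. NtTIR1T differed by 5.50 on the log2 scale (SE 0.41, adjusted p = 3.86e-11), with the larger rise in the BY pair. NtTIR1S differed by -1.69 (SE 0.36, adjusted p = 0.000277). It was called in the VBI pair alone, but its level in BY-2H is uncertain beside that of NtTIR1T, and so is this difference. Nitab4.5_0000190g0020.1 differed by 2.11 (SE 0.21, adjusted p = 5.39e-09), having risen in BY-2H and fallen in VBI-2. Nitab4.5_0002093g0100.1 (-2.63, SE 0.41, adjusted p = 5.64e-06) and Nitab4.5_0002093g0180.1 (-4.46, SE 0.57, adjusted p = 3.69e-07) fell in the BY pair alone, and the sum of Nitab4.5_0002093g0100.1 and its partner differed by -1.54 (SE 0.36, adjusted p = 0.000748). Nitab4.5_0000053g0050.1 did not pass (1.70, SE 0.78, adjusted p = 0.0692) but did without BY-2 replicate 3 (adjusted p = 0.00431), VBI-2 replicate 1 (adjusted p = 0.035) or VBI-0 replicate 3. Company and read type are part of the BY pair and not of the VBI pair, and this difference contains them. The pairs also differ in cultivar and medium, which cannot be told apart from the pair here.

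The copies of a pair were divided differently in the lines. The share of NtTIR1T in the NtTIR1 pair was 69.0% to 75.6% in the 3 BY-2 libraries and between 29.7% and 51.4% in the 12 VBI libraries, with no overlap. Nitab4.5_0000190g0020.1 made up 57.5% ± 1.14 and 60.2% ± 2.02 of its pair in stationary and exponential BY-2H and 59.6% ± 5.52 in BY-2. It made up 64.5% ± 2.69 in stationary VBI-2 and 80.7% ± 1.21 in stationary VBI-0 cells, and 64.5% ± 4.09 in exponential VBI-2 and 79.6% ± 5.14 in exponential VBI-0 cells (SD, n = 3 each), without overlap between the VBI lines in either phase. Nitab4.5_0000053g0050.1 made up 5.99% to 13.6% of its pair in the 6 VBI-2 libraries and 12.4% to 21.96% in the 6 VBI-0 libraries, ranges that overlapped.

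**Figure D3:**
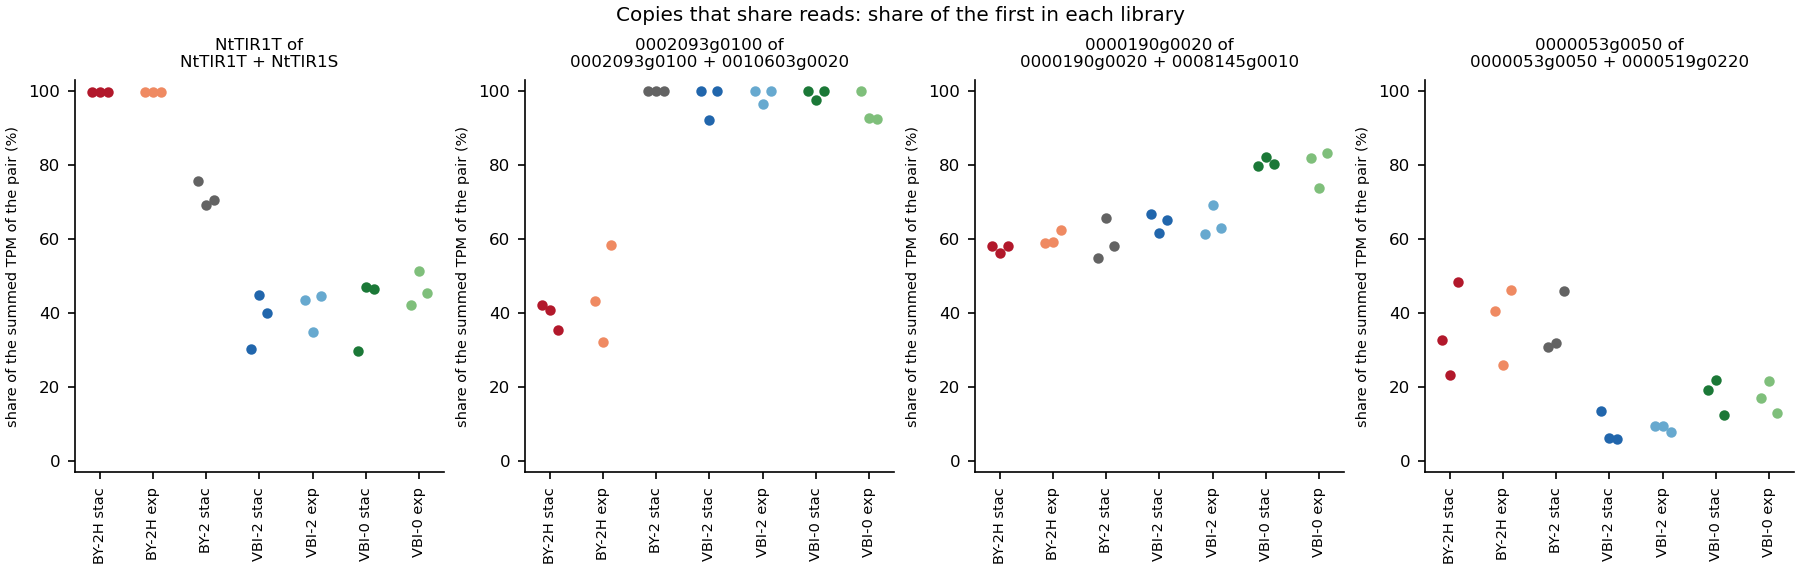
Share of the first copy in the summed TPM of 4 pairs of receptor transcripts that share reads, in percent, 1 point per library and 7 groups on the horizontal axis. NtTIR1T takes over 99% of its pair in all 6 BY-2H libraries, and Nitab4.5_0002093g0100.1 takes 32.3% to 58.5% of its pair in BY-2H and at least 92.1% in all other libraries.

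Growth phase changed none of the 7 beyond the limits in BY-2H, VBI-2 or VBI-0, the lines with both phases. In stationary against exponential cells, 0 of 7 were called in BY-2H (2.68% of 44765 transcripts tested were, 1.72% higher and 0.963% lower), in VBI-2 (1.6% of 48440, 0.993% higher and 0.603% lower) and in VBI-0 (4.45% of 48440, 1.97% higher and 2.49% lower) by edgeR, and likewise 0 by DESeq2 and by limma on log2(TPM + 0.5). At an unadjusted p under 0.05 there was 1 in BY-2H, 0 in VBI-2 and 1 in VBI-0, in both cases Nitab4.5_0000190g0020.1. NtTIR1T in BY-2H had 1140, 1213 and 1183 TPM in the exponential phase, all just under the stationary values, at a log2 ratio of 0.07 (SE 0.054, adjusted p = 0.568). In VBI-2 the change was -0.49 (SE 0.24, adjusted p = 0.325) and in VBI-0 -0.06 (SE 0.30, adjusted p = 0.948).

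Nitab4.5_0000190g0020.1 had 24.7, 24.7 and 23.1 TPM in stationary VBI-0 cells, against 13.6, 12.3 and 16.4 TPM in exponential VBI-0 cells, without overlap. The log2 fold change of 0.76 (SE 0.089, adjusted p = 3.98e-06) was under the fold limit. In VBI-2 cells it had 13.9, 13.2 and 13.7 TPM in the stationary and 12.8, 13.7 and 13.1 TPM in the exponential phase (log2 fold change -0.05, SE 0.091, adjusted p = 0.904). The interaction of line and phase in the VBI lines was -0.81 (SE 0.13, adjusted p = 0.00057), and this was the only one of the 7 with an adjusted p of at most 0.05, where 6.82% of the transcripts tested had one (4% above and 2.82% below 0). The summed pair gave -0.79 (SE 0.12, adjusted p = 0.000461). The difference between VBI-2 and VBI-0 in this transcript was thus larger in the stationary than in the exponential phase. In BY-2H it moved little, at a log2 ratio of -0.28 (SE 0.093, adjusted p = 0.0297).

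**Figure D4:**
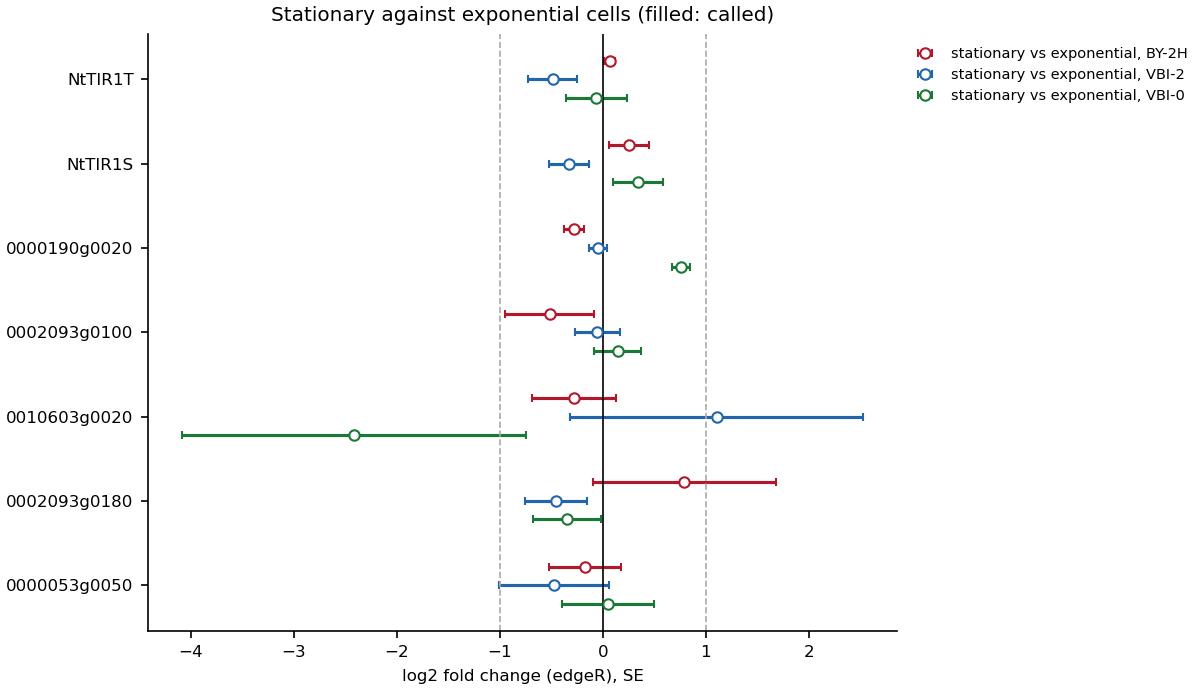
Log2 fold changes (edgeR, SE) of the 7 receptor transcripts in stationary against exponential cells of BY-2H, VBI-2 and VBI-0; filled points would mark calls and dashed lines the fold limit of 1. All points are open, and the wide bars of Nitab4.5_0010603g0020.1 in the VBI lines go with 0 to 6.77 reads a library.

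Across the 7 groups the order of levels differed from member to member. For NtTIR1T it ran, by mean TPM, from BY-2H (1247 ± 24.7 stationary, 1179 ± 36.4 exponential) over BY-2 (7.84 ± 3.31), exponential and stationary VBI-2 (3.39 ± 0.885 and 2.54 ± 0.543) to exponential and stationary VBI-0 (0.869 ± 0.178 and 0.846 ± 0.239; SD, n = 3 each). Between neighbours, exponential BY-2H and BY-2 (adjusted p = 3.9e-16), BY-2 and exponential VBI-2 (adjusted p = 1.69e-05) and stationary VBI-2 and exponential VBI-0 (adjusted p = 0.00024) differed in the fit of all 21 libraries, and the phases within a line did not. The dependent lines thus also differed: stationary BY-2 cells stood 3.35 above stationary VBI-0 cells on the log2 scale (adjusted p = 2.41e-10). Cultivar, medium and the auxins supplied differ between these lines as well.

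For NtTIR1S the order was exponential VBI-2 (4.78 ± 0.362 TPM), stationary VBI-2 (4.06 ± 0.430), stationary and exponential BY-2H (3.599 ± 0.609 and 2.98 ± 0.532), BY-2 (2.97 ± 0.700), stationary VBI-0 (1.26 ± 0.469) and exponential VBI-0 (0.994 ± 0.0467). Only the step between BY-2 and stationary VBI-0 passed (adjusted p = 4.98e-05), and among the first 5 groups no neighbouring pair did, although exponential BY-2H stood below exponential VBI-2 (log2 fold change -0.83, adjusted p = 0.00441). The place of both BY-2H groups in this order is uncertain, as reads shared with the far more abundant NtTIR1T may be divided wrongly there. The order is by TPM, whereas the steps were tested on scaled reads. Exponential BY-2H stood above BY-2 by TPM but below it by edgeR (log2 fold change -0.38, adjusted p = 0.202). The place of BY-2 thus depends on the unit. Nitab4.5_0000190g0020.1 was highest in stationary VBI-0 (24.2 ± 0.929 TPM, adjusted p = 7.84e-05 against exponential BY-2H at 16.2 ± 0.549) and lowest in BY-2 (5.08 ± 1.17 TPM, adjusted p = 5.76e-07 against exponential VBI-2 at 13.2 ± 0.436), and the neighbouring steps between the 5 other groups did not pass.

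Nitab4.5_0002093g0100.1 had its lowest means in both BY-2H groups (2.27 ± 0.958 and 3.39 ± 1.10 TPM) and lay between 6.76 and 10.9 TPM in the other groups. The steps between exponential VBI-0 and exponential BY-2H (adjusted p = 0.00457) and, with overlapping TPM, between BY-2 and stationary VBI-0 (adjusted p = 0.0468) had an adjusted p under the limit. Stationary VBI-2 stood above BY-2 by TPM but below it by edgeR (log2 fold change -0.25, adjusted p = 0.403), so here too the place of BY-2 depends on the unit. Nitab4.5_0002093g0180.1 was highest in BY-2 (2.49 ± 0.716 TPM, adjusted p = 0.000627 against exponential VBI-2 at 1.05 ± 0.143) and lowest in BY-2H (0.200 ± 0.0849 and 0.114 ± 0.104 TPM; adjusted p = 0.0102 between stationary VBI-0 and stationary BY-2H). Nitab4.5_0010603g0020.1 stood apart in BY-2H (3.37 ± 1.15 and 4.16 ± 0.894 TPM; adjusted p = 0.00395 between stationary BY-2H and exponential VBI-0), and the other groups averaged at most 0.374 TPM. Nitab4.5_0000053g0050.1 ranged between 0.499 and 1.74 TPM by group mean, and none of its neighbouring steps passed.

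The receptor pool, taken as the summed TPM of the 7 transcripts, was 1272 ± 23.7 TPM in stationary BY-2H, against 28.1 ± 5.42 TPM in BY-2 cells. NtTIR1T made up 98.1% ± 0.144 of it in stationary and 97.6% ± 0.165 in exponential BY-2H, against 27.4% ± 7.04 in BY-2 (SD, n = 3 each). In stationary cells its share was 7.86% ± 1.80 in VBI-2 and 2.38% ± 0.792 in VBI-0, and in exponential cells 9.88% ± 2.20 in VBI-2 and 3.50% ± 0.482 in VBI-0. The shares of the VBI lines did not overlap in either phase. With 3 against 3 libraries no exact test of a share could go below p = 0.10, and the shares are given as a description.

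Without NtTIR1T the pool of the 7 varied far less. It held 24.4 ± 1.53 TPM in stationary BY-2H and 20.2 ± 3.11 TPM in BY-2. In stationary cells it held 29.9 ± 1.98 TPM in VBI-2 and 35.0 ± 1.82 TPM in VBI-0. In exponential cells it held 30.7 ± 0.697 TPM in VBI-2 and 23.8 ± 1.55 TPM in VBI-0 (SD, n = 3 each). The leading transcript of the 7 was Nitab4.5_0000190g0020.1 in all VBI groups, where it held 42.0% ± 2.74 of the pool in stationary VBI-2 and 67.3% ± 0.418 in stationary VBI-0. In BY-2 it was, by mean share, Nitab4.5_0002093g0100.1 with 31.7% ± 6.98, though NtTIR1T led in replicate 1. NtTIR1S held 12.5% ± 1.08 in stationary VBI-2 and 3.52% ± 1.299 in stationary VBI-0.

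The share depends on which transcripts form the pool. Over all 14 receptor transcripts, NtTIR1T made up 90.3% in stationary BY-2H, against 8.93% in BY-2. The summed TPM of the 14 without NtTIR1T was 133.5 ± 1.91 in stationary BY-2H against 78.8 ± 16.2 in BY-2, without overlap. The EF1a and aminopeptidase-like reference transcripts also had higher mean TPM in BY-2H, at log2 fold changes below 0 by edgeR. How much of the difference in the sum lies in the TPM scale was not tested. In exponential cells it was 165 ± 11.4 in VBI-2 against 115 ± 6.11 in VBI-0, also without overlap. In stationary cells it was 156 ± 6.60 in VBI-2 and 151 ± 4.19 in VBI-0, which overlapped (SD, n = 3 each). Outside BY-2H the most abundant of the 14 was Nitab4.5_0005161g0090.1, one of the 7 others, with 62.4 ± 3.76 TPM in stationary VBI-2, 51.7 ± 1.45 TPM in stationary VBI-0 and 21.3 ± 1.34 TPM in BY-2.

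**Figure D5:**
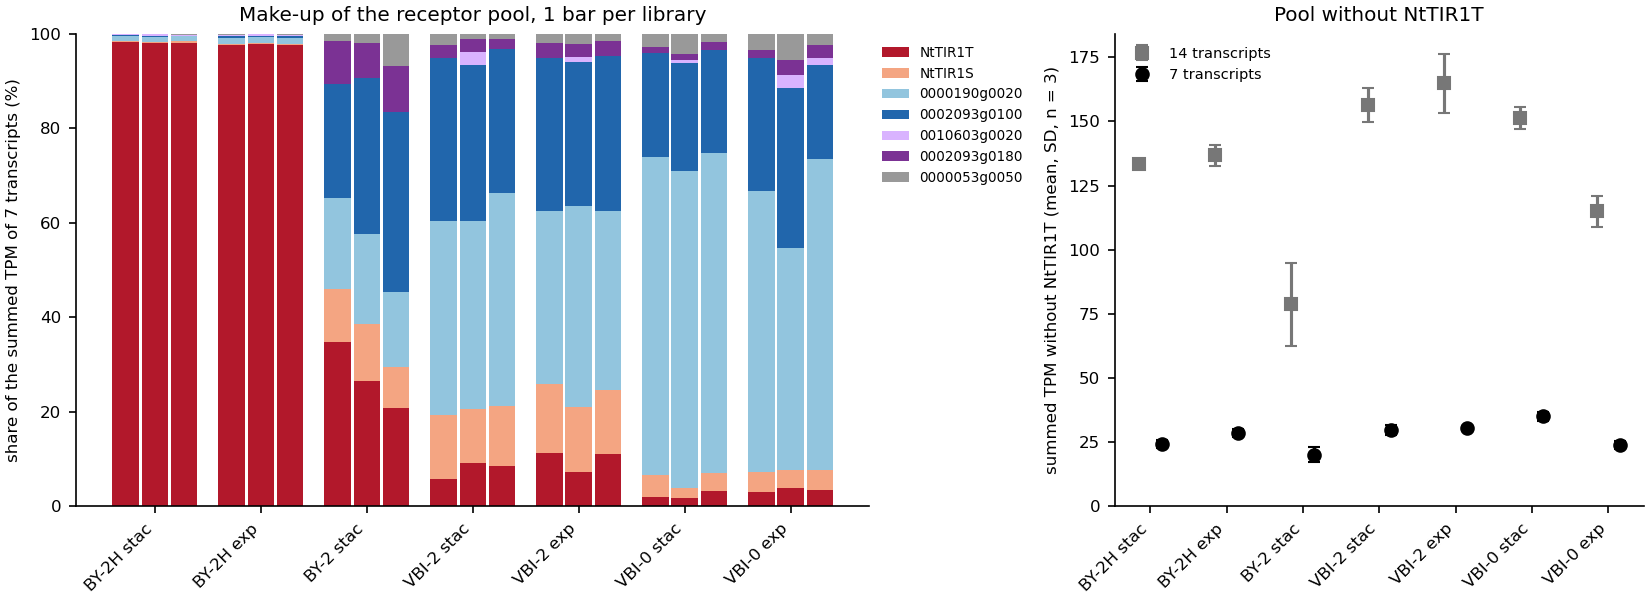
Left, share of each of the 7 receptor transcripts in their summed TPM, 1 bar per library. Right, summed TPM without NtTIR1T of the 7 and of all 14 receptor transcripts (mean, SD, n = 3). NtTIR1T fills 97.5% to 98.2% of the pool in BY-2H libraries and at most 34.8% elsewhere, and the pool of the 7 without it lies between 20.2 and 35.0 TPM by group mean.

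The transcripts with group profiles most like NtTIR1T, by the smallest root mean square difference of centred log2(TPM + 0.5) over the 7 group means among 49973 others, were Nitab4.5_0005034g0010.1 (0.82), Nitab4.5_0000123g0140.1 (0.84), Nitab4.5_0000516g0130.1 (0.96), Nitab4.5_0000844g0050.1 (0.96) and Nitab4.5_0005079g0040.1 (1.01). They reached 127, 234, 111, 599 and 125 TPM on average in stationary BY-2H and at most 2.11 TPM in BY-2. Those most like NtTIR1S were Nitab4.5_0000214g0150.1 (0.069), Nitab4.5_0012137g0030.1 (0.11) and Nitab4.5_0003503g0010.1 (0.13). The first of these averaged 22.6 TPM in stationary VBI-2 and 7.81 TPM in stationary VBI-0. The differences were not scaled to the spread of the levels, so the values for NtTIR1T and NtTIR1S cannot be compared with each other.

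By ID, NtTIR1T stands between Nitab4.5_0000824g0060.1 and Nitab4.5_0000824g0080.1 on its scaffold, and neither shared its level. Nitab4.5_0000824g0060.1 had 1.28 ± 0.719 TPM in stationary BY-2H against 0 reads in all BY-2 libraries (adjusted p = 0.00544), and 4.01 ± 0.565 TPM in stationary VBI-2 against 0.594 ± 0.208 TPM in stationary VBI-0 (log2 fold change 2.87, SE 0.47, adjusted p = 1.75e-05). Nitab4.5_0000824g0080.1 had 5.55 ± 0.995 TPM in stationary BY-2H against 5.40 ± 3.75 TPM in BY-2 (log2 fold change -0.53, SE 0.50, adjusted p = 0.386), and it rose in exponential VBI-2 cells, with 26.5 ± 4.28 TPM against 8.80 ± 2.60 TPM in exponential VBI-0 (log2 fold change 1.41, SE 0.19, adjusted p = 1.32e-06; SD, n = 3 each).

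Downstream of the receptors stand the AUX/IAA repressors and ARFs, and among the genes that auxin induces are GH3 enzymes, which join auxin to amino acids, and SAUR-like genes. In stationary BY-2H against BY-2 cells, 6 of 42 AUX/IAA transcripts tested were higher and 20 lower, 7 of 48 ARF transcripts higher and 23 lower, and 1 of 17 GH3 transcripts higher and 12 lower. Of 25 SAUR-like transcripts 6 were higher and 2 lower. Of all transcripts tested, 20.3% were higher and 22.8% lower, so the share of SAUR-like transcripts that were higher was near that of all transcripts. In stationary VBI-2 against VBI-0 cells, 4 of 47 AUX/IAA transcripts were higher and 39 lower, 3 of 48 ARF transcripts higher and 26 lower, 0 of 18 GH3 transcripts higher and 13 lower, and 1 of 26 SAUR-like transcripts higher and 4 lower, where 17.7% of all transcripts tested were higher and 22.3% lower. In exponential cells of the VBI lines the counts were 4 higher and 36 lower for AUX/IAA, 4 and 20 for ARF, 0 and 11 for GH3 and 2 and 3 for SAUR-like transcripts of the same numbers tested, where 17.1% of all transcripts were higher and 21.5% lower. In stationary cells the median log2 fold changes were -1.07 (AUX/IAA), -0.89 (ARF), -2.50 (GH3) and -1.14 (SAUR-like) in the BY pair, where the median of all transcripts tested was -0.06, and -4.25, -1.40, -3.20 and -0.40 in the VBI pair, where it was -0.03.

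The most abundant called AUX/IAA transcripts were Nitab4.5_0006977g0010.1, with a mean of 394 TPM in stationary BY-2H against 125 TPM in BY-2 (log2 fold change 1.29, SE 0.15, adjusted p = 5.22e-05), and Nitab4.5_0000377g0200.1, with 122 ± 8.96 TPM in stationary VBI-2 against 868 ± 34.7 TPM in VBI-0 (log2 fold change -2.93, SE 0.086, adjusted p = 2.06e-16). Nitab4.5_0006977g0010.1 went the other way in the VBI pair, with 76.0 ± 7.87 TPM in stationary VBI-2 against 664 ± 37.1 TPM in VBI-0 (log2 fold change -3.26, SE 0.10, adjusted p = 6.55e-16). The GH3 transcript Nitab4.5_0001480g0060.1 fell in both pairs, to 2.39 ± 0.287 TPM in stationary BY-2H against 18.6 ± 18.0 TPM in BY-2 and to 0.152 ± 0.00549 TPM in stationary VBI-2 against 61.9 ± 2.37 TPM in VBI-0 (SD, n = 3 each). The study used EF1a and an aminopeptidase-like gene as RT-qPCR references. The EF1a transcript taken here, Nitab4.5_0001802g0030.1, carries another accession than the study's methods give and may be another copy. It did not pass in the BY pair (log2 fold change -0.15, SE 0.17, adjusted p = 0.468). In stationary VBI-2 it was lower than in VBI-0 cells (log2 fold change -1.26, SE 0.081, adjusted p = 2.89e-11). The aminopeptidase-like transcript was called in neither pair.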

How the data were processed

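RNA-seq was done on 21 libraries of 4 tobacco suspension lines. Per the study's methods and the submitters' processing notes, the authors trimmed the reads and quantified them with Salmon 1.3.0 against the Nitab4.5 cDNA set (the notes name Trimmomatic, the methods other trimming tools). The deposited tables give, per transcript, estimated counts, TPM, length and effective length, in 1 table a library. Salmon divides reads that fit several transcripts, so single copies of a pair are less certain than their sum.

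Estimated counts were rounded to whole numbers. A transcript was tested if its mean exceeded 0.5 TPM in any of the 7 groups and it had reads in the fit, with edgeR 4.0.16 under R 4.3.3 (TMM scaling, quasi-likelihood test, p-values adjusted after Benjamini and Hochberg). The BY lines were compared on their 6 stationary libraries, the phases of BY-2H on its 6, the VBI comparisons and their interaction on all 12 VBI libraries, and the level order and the difference between pairs of lines on all 21. Calls needed an adjusted p no higher than 0.05 and a log2 fold change of 1 or more in size, except the interaction and the difference between pairs, which used the adjusted p alone. Against a group at 0, a floor of 3 reads over the group was used, which covers counting error only. The code was tested on simulated data.

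Named were all 14 receptor transcripts, the 5 and 3 transcripts most like NtTIR1T and NtTIR1S, and both ID neighbours of NtTIR1T. Transcripts taken for both RT-qPCR references were named too and, per list and comparison, up to 2 called transcripts of highest mean TPM, of which some are printed. The receptor, AUX/IAA, ARF, GH3 and SAUR-like lists are classes of the study's own auxin gene table; the members and lists were chosen with earlier results of these data known, and they are no independent evidence. Alternatives were DESeq2 1.42.0, limma 3.58.1 on log2(TPM + 0.5) or log2(TPM + 1), other scaling, filters, length offsets, other sets of libraries, a replicate block and leaving out each library.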

Additional observations from a re-analysis of the deposited data

Results flagged for a closer look

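The following transcripts responded differently in 2 settings by a test of the difference itself. Between the phases of the VBI lines, the effect of VBI-2 against VBI-0 was lower in stationary than in exponential cells for Nitab4.5_0000190g0020.1 (difference of log2 fold changes -0.81, adjusted p = 0.00057) and Nitab4.5_0000559g0290.1 (-0.56, adjusted p = 0.0238), both by edgeR's quasi-likelihood test. Summed with their read-sharing partners these were -0.79 (adjusted p = 0.000461) and -0.39 (adjusted p = 0.0461).

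Between the pairs of lines in stationary cells, the effect of BY-2H against BY-2 exceeded that of VBI-2 against VBI-0 for NtTIR1T (5.50, adjusted p = 3.86e-11), Nitab4.5_0000190g0020.1 (2.11, adjusted p = 5.39e-09), Nitab4.5_0000559g0290.1 (1.43, adjusted p = 9.11e-07), Nitab4.5_0007017g0010.1 (1.09, adjusted p = 0.00231) and Nitab4.5_0008145g0010.1 (0.85, adjusted p = 0.0288). It was lower for NtTIR1S (-1.69, adjusted p = 0.000277), Nitab4.5_0002093g0100.1 (-2.63, adjusted p = 5.64e-06) and Nitab4.5_0002093g0180.1 (-4.46, adjusted p = 3.69e-07). With the partner's reads added, Nitab4.5_0007017g0010.1 no longer passed (0.43, adjusted p = 0.185) and Nitab4.5_0000559g0290.1 came to 0.433 (adjusted p = 0.0166). The NtTIR1 pair came to 5.02 (adjusted p = 9.43e-13), the pair of Nitab4.5_0000190g0020.1 and Nitab4.5_0008145g0010.1 to 1.84 (adjusted p = 1.45e-07), that of Nitab4.5_0002093g0100.1 to -1.54 (adjusted p = 0.000748) and that of Nitab4.5_0002093g0180.1 to -4.37 (adjusted p = 4.26e-07). These adjusted p-values come from the fit of all 21 libraries, which pools the spread of BY-2 with less variable groups. The median of all transcripts tested was 0.11 in this comparison, and company and read type cannot be told apart from the line in the BY pair. Cultivar and medium differ between the pairs as well.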

How the results depend on the processing

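Of the 7 receptor transcripts, the count called in BY-2H against BY-2 was 4 to 5 over 15 alternatives and over the fits without 1 library. In VBI-2 against VBI-0 it was 2 to 3 in exponential cells, and in stationary cells 1 to 4, with 2 under limma on log2(TPM + 0.5), 1 under limma on log2(TPM + 1) and 2 to 4 without 1 library. It was 0 for the phases in all alternatives, 1 for the interaction and 5 to 6 for the difference between pairs of lines, which was added after the data had been seen. No called value changed direction. With a replicate block the counts were 5, 2 and 4 for the line comparisons and 0 for each phase comparison. They were 1 for the interaction and 5 for the difference between pairs, and no call changed. Same-numbered libraries correlated between -0.144 and 0.191. The highest values were 0.139 and 0.191, in stationary VBI-2 against VBI-0 cells. With 3 libraries a group, these values cannot tell whether the numbers paired the libraries. Over all 14 receptor transcripts the share of NtTIR1T was 90.3% and 89.6% in stationary and exponential BY-2H, 8.93% in BY-2, 1.59% and 2.00% in stationary and exponential VBI-2, and 0.558% and 0.746% in stationary and exponential VBI-0. Depth limits Nitab4.5_0010603g0020.1, Nitab4.5_0000053g0050.1 and Nitab4.5_0002093g0180.1, whose levels rest on few reads a library.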
